A study of Arabidopsis thaliana with 12 samples.

Results

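The genes described here are DFR (AT5G42800), UF3GT (AT5G54060), AT4G14090 and AT5MAT (AT3G29590), which act late in anthocyanin synthesis in Arabidopsis thaliana. They were chosen by their loci, with earlier results of these data known. Their calls and places among all probe sets below are therefore not evidence from an independent choice. All 4 were found, each with 1 probe set, among 13356 genes that the array's annotation names singly. The aerial parts were taken from seedlings kept at 22 °C under continuous white light until day 9 and then treated for 24 hours, so that plants were 10 days old. The groups were white light with supplemental far-red light and ABA (far-red with ABA), supplemental far-red light alone (far-red), white light with ABA, and white light with a mock treatment (white light). Each had 3 arrays described as biological replicates, 12 in all. Added far-red light mimics the shade of neighbouring plants, and abscisic acid (ABA) is a plant hormone that rises in drought. In the labels the ABA concentration is 1 mM, and the light intensities, per square metre and second, are 6 mmol for far-red and 80 mmol for white light. These prefixes could not be checked, and no comparison uses them. The labels give no genotype or accession, and all 4 groups share the continuous white light.

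Anthocyanins are red to purple flavonoid pigments that accumulate in the vacuoles of seedlings and leaves under strong light, cold, drought and sugar. Dihydroflavonol reductase, the product of DFR, takes the first step that leads away from the flavonols, and an anthocyanidin is then formed and decorated with sugars and acids. In Arabidopsis the UF3GT enzyme, also named UGT79B1, is known to add xylose to the anthocyanin despite a symbol that stands for a glucosyltransferase. AT4G14090 encodes an anthocyanin glucosyltransferase (UGT75C1), and AT5MAT encodes the malonyltransferase that acylates the glucose so added. These late genes are known targets of a complex of MYB, bHLH and WD40 proteins.

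The values are log2 expression values from robust multi-array averaging (RMA), on which 1 unit is a doubling of hybridisation signal. Differences were tested with limma over all 22746 probe sets, and a difference is called where the Benjamini-Hochberg adjusted p is below 0.05. With 3 arrays per group, the spread of a gene was pooled over the 4 groups and drawn toward that of the other probe sets. A gene therefore had the same standard error in every pairwise comparison, even where its groups differed in spread. The standard error of a group difference had a median of 0.10 over all probe sets. The median value of an array was 5.45 to 5.62 log2 units, and 60.6% to 67.2% of its probe sets were called present, both highest in far-red replicate 3. All 6 measured ABA-responsive genes, of 9 listed, rose with ABA in either light condition. The shade marker IAA29, the 1 measured of 4 listed, rose with far-red light at either ABA level. These lists were chosen with earlier results of these data known, so the rises are not an independent check of the treatments. IAA29 was called present on 2 of 3 arrays in far-red with ABA, 1 of 3 in far-red and 0 in either white-light group, so this check lies near background. The 6 measured green tissue genes were present on every array, while the root genes EXPA7 and EXPA18 and the seed coat gene BAN were absent on every array. None of the green tissue genes was called with ABA, and LHCB4.2 fell with far-red light without ABA by 0.37. The listed epidermis, vasculature and seed storage markers are not named on the array annotation used here. In these bulk samples fewer cells of a type and less RNA per cell cannot be told apart.

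DFR, UF3GT and AT4G14090 were called present on all 12 arrays, and AT5MAT on 11, with an absent call on 1 white-light array. In each of the 4 genes the group means stood in the same order, with white light with ABA highest, then far-red with ABA, far-red and white light.

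DFR, at the entry to the late pathway, read 10.24, 10.50 and 10.07 log2 units in far-red with ABA and 9.50, 9.59 and 9.07 in far-red (replicates 1, 2 and 3). It read 10.74, 10.51 and 10.58 in white light with ABA, against 8.90, 9.09 and 9.30 in white light. Every array with ABA was above every array without it. The 2 neighbouring means at the top of the order, and the 2 at the bottom, were not separated by the test (adjusted p = 0.37 and adjusted p = 0.257 by limma).

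UF3GT, which adds xylose, read 9.05, 9.35 and 8.67 log2 units in far-red with ABA and 8.30, 8.25 and 7.77 in far-red. It read 9.49, 9.61 and 9.21 in white light with ABA, against 7.66, 7.89 and 7.92 in white light. The arrays with ABA again lay above all arrays without it, and far-red replicate 3 lay inside the range of white light.

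AT4G14090, the anthocyanin glucosyltransferase gene, read 9.30, 9.43 and 8.92 log2 units in far-red with ABA and 8.43, 8.65 and 7.96 in far-red. It read 9.72, 9.47 and 9.17 in white light with ABA, against 7.90, 7.94 and 7.85 in white light. The white-light arrays lay close together (SD 0.05) and below all far-red arrays, whose SD was 0.35 and whose lowest value was 7.96.

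AT5MAT, the malonyltransferase gene, read 6.74, 7.00 and 6.36 log2 units in far-red with ABA and 6.24, 6.31 and 5.95 in far-red. It read 7.14, 7.32 and 6.86 in white light with ABA, against 5.76, 5.79 and 5.90 in white light. Its far-red arrays were all above white light, and its far-red arrays with ABA reached down to 6.36, just above the highest far-red array without ABA.

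**Figure D1:**
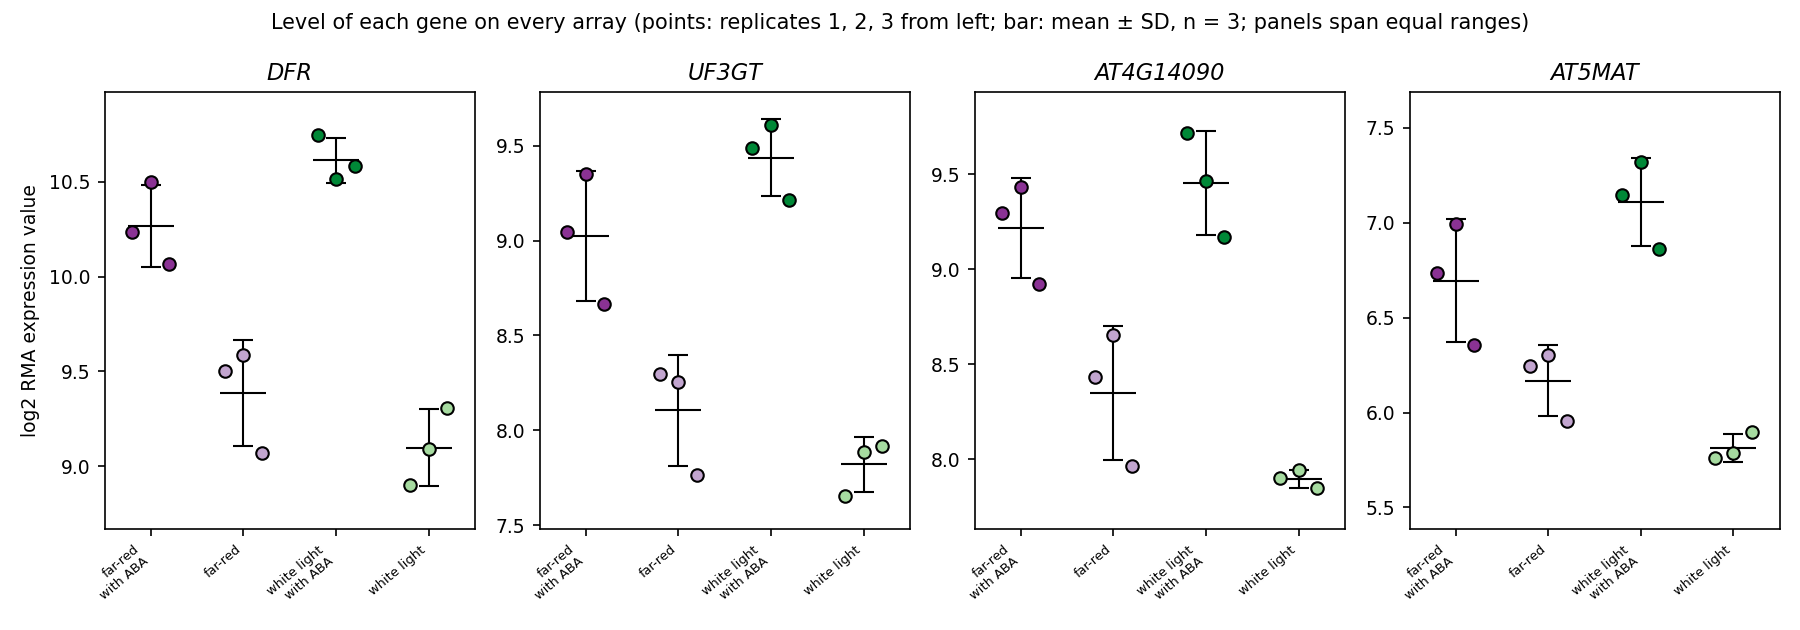
Log2 RMA value of DFR, UF3GT, AT4G14090 and AT5MAT on each of the 12 arrays by group, with points for replicates 1 to 3 from left to right and bars for the mean and SD (n = 3). In all 4 panels white light with ABA has the highest mean and white light the lowest, and replicate 3 is the lowest point of both far-red groups.

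In the far-red groups the same replicates were lowest for all 4 genes. The 4 genes have similar profiles, so these are not 4 separate observations, and the like share of all probe sets was not counted. Far-red replicate 3 also had the highest array median and share of present calls, and a link was not tested. Far-red with ABA replicate 3 was the lowest array of its group for 4 of the 4 genes, and far-red replicate 3 was the lowest of its own for 4 of 4. White light with ABA replicate 3 was the lowest for 3 of 4, with DFR as the exception. White light replicate 3 was the highest for 3 of 4 and the lowest for AT4G14090. Far-red replicate 3 deviated from its group mean by -0.21 (AT5MAT) to -0.39 log2 units (AT4G14090). Far-red with ABA replicate 3 deviated by -0.20 (DFR) to -0.35 (UF3GT).

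With ABA in white light the expression of all 4 genes rose, and each array with ABA was above each array without it. DFR averaged 10.61 ± 0.12 log2 units in white light with ABA and 9.10 ± 0.20 in white light (SD, n = 3 each), a 2.86-fold rise (log2 difference 1.51, 95% interval 1.21 to 1.82, limma adjusted p = 8.1e-06). UF3GT averaged 9.44 ± 0.20 with ABA and 7.82 ± 0.14 without, a 3.06-fold rise (1.62, 1.26 to 1.97, limma adjusted p = 2.1e-05). AT4G14090 averaged 9.45 ± 0.27 with ABA and 7.90 ± 0.05 without, a 2.94-fold rise (1.56, 1.20 to 1.92, limma adjusted p = 3.2e-05). The intervals of these 3 genes lie wholly above a doubling of signal. AT5MAT averaged 7.11 ± 0.23 with ABA and 5.81 ± 0.07 without, a 2.45-fold rise (1.30, 0.98 to 1.61, limma adjusted p = 5.6e-05). The intervals of the 4 genes overlap, and their differences from each other were not tested. Of all probe sets 6.43% were called, with 4.02% called higher, and 12.8% had all arrays with ABA above all arrays in white light. Centring each array on its median moved the share of calls that were higher to 43.9%, against 62.5% as deposited, while all 4 genes stayed called higher. Counted from the largest increase, with falls not set against them, UF3GT stood at place 38 of 22746, AT4G14090 at 42, DFR at 44 and AT5MAT at 74. The median difference was 1.54 log2 units over the 4 genes and -0.0022 over all probe sets.

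Under far-red light the expression of all 4 genes again rose with ABA, and again no array with ABA overlapped those without. DFR averaged 10.27 ± 0.22 log2 units in far-red with ABA and 9.39 ± 0.28 in far-red, a 1.84-fold rise (0.88, 95% interval 0.58 to 1.19, limma adjusted p = 0.00125). UF3GT averaged 9.02 ± 0.34 with ABA and 8.10 ± 0.29 without, a 1.89-fold rise (0.92, 0.56 to 1.27, limma adjusted p = 0.00285). AT4G14090 averaged 9.22 ± 0.26 with ABA and 8.35 ± 0.35 without, a 1.82-fold rise (0.87, 0.51 to 1.23, limma adjusted p = 0.00419). The intervals of these 3 genes include a doubling of signal, whereas that of AT5MAT lies below it. AT5MAT averaged 6.70 ± 0.32 with ABA and 6.17 ± 0.19 without, a 1.44-fold rise (0.53, 0.21 to 0.84, limma adjusted p = 0.0338). Of all probe sets 10.3% were called, with 5.06% called higher, and 12.3% had all arrays with ABA above all without. The share of calls that were higher was 59.6% after median centring and 48.9% as deposited. Counted in the same way UF3GT stood at place 156, DFR at 172, AT4G14090 at 178 and AT5MAT at 576. The median difference was 0.87 over the 4 genes and -0.015 over all probe sets. The call of AT5MAT was lost without far-red replicate 1 (0.57) or 3 (0.42), without far-red with ABA replicate 1 (0.51) or 2 (0.38), and with only the far-red groups in the fit (adjusted p = 0.0697); its adjusted p ranged from 0.00708 to 0.152 over 19 alternatives. The rise of the other 3 genes stayed called in all 19.

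**Figure D2:**
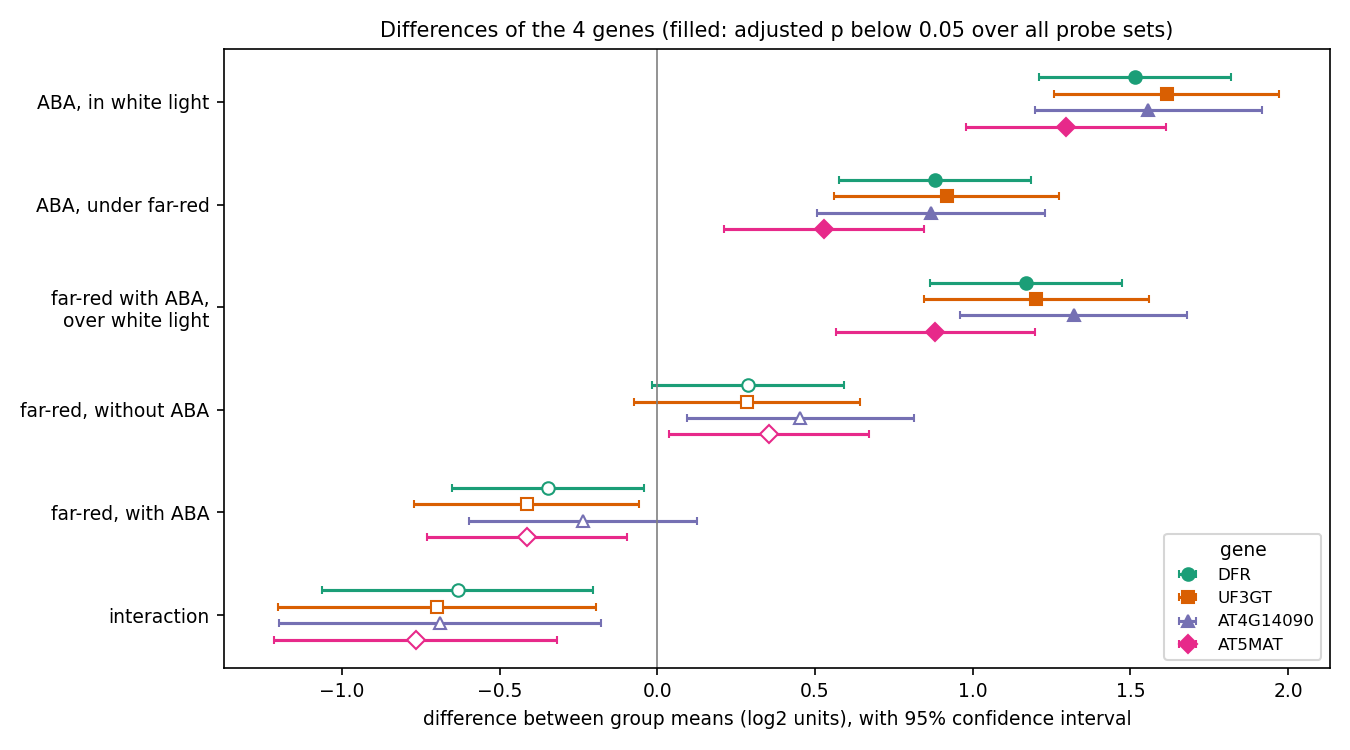
Difference between group means in log2 units (horizontal axis) with its 95% confidence interval for each of the 4 genes in 5 pairwise comparisons and the interaction; filled symbols passed limma's adjusted p. The 3 upper comparisons, which set a group with ABA against one without, lie between 0.53 and 1.62, and the open symbols below lie between -0.77 and 0.45.

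Averaged over the light conditions, the ABA difference was 1.20 log2 units for DFR, 1.27 for UF3GT, 1.21 for AT4G14090 and 0.91 for AT5MAT. An exact permutation test of single genes, with ABA labels exchanged within each light condition, gave p = 0.005 for each (two-sided, 400 arrangements, the smallest p they can give; p = 0.01 after adjustment over 8 tests). An exact permutation test of 3 arrays against 3 could not go below p = 0.1. In limma the averaged ABA difference was called for all 4 genes, with adjusted p from 9.4e-07 (DFR) to 2.3e-05 (AT5MAT), where 8.64% of probe sets were called higher.

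Far-red light given without ABA had small positive differences, none of which was called in the main fit. AT4G14090 was called when the replicate number was added to the fit (limma adjusted p = 0.0297). AT4G14090 averaged 8.35 ± 0.35 log2 units in far-red and 7.90 ± 0.05 in white light (difference 0.45, 95% interval 0.09 to 0.81, limma adjusted p = 0.125). AT5MAT averaged 6.17 ± 0.19 in far-red and 5.81 ± 0.07 in white light (0.35, 0.04 to 0.67, limma adjusted p = 0.173). These 2 genes had every far-red array above every white-light array, as did 14.8% of all probe sets. DFR had a difference of 0.29 (-0.02 to 0.59, limma adjusted p = 0.257) and UF3GT one of 0.28 (-0.07 to 0.64, limma adjusted p = 0.346), both with overlapping arrays. By limma 0 of the 4 genes were called, against 6.12% of all probe sets in either direction, of which 63.2% were higher as deposited, 23.2% after median centring and 49.8% after quantile normalisation. Of the 4 genes, 2 had an unadjusted p below 0.05, 0.0171 for AT4G14090 and 0.0309 for AT5MAT, as did 22.1% of all probe sets. With 1 array left out, AT4G14090 had a difference of 0.65 and was called without far-red replicate 3 (adjusted p = 0.0467), and had one of 0.30 without far-red replicate 2 (adjusted p = 0.397, the range over the arrays left out). With far-red replicate 3 left out DFR and UF3GT each had a difference of 0.45. DFR had 0.19 when far-red replicate 2, or white light replicate 1, was the array left out, and UF3GT had 0.19 when it was far-red replicate 1; none of these was called.

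With ABA present the far-red differences were negative, and again none was called. DFR averaged 10.27 ± 0.22 log2 units in far-red with ABA and 10.61 ± 0.12 in white light with ABA (difference -0.35, 95% interval -0.65 to -0.04, limma adjusted p = 0.37). It was the 1 gene of the 4 whose far-red arrays with ABA lay below all arrays in white light with ABA, as held for 9.83% of probe sets. AT5MAT had a difference of -0.41 (-0.73 to -0.10, limma adjusted p = 0.296), UF3GT of -0.41 (-0.77 to -0.06, limma adjusted p = 0.355) and AT4G14090 of -0.24 (-0.60 to 0.12, limma adjusted p = 0.622). By limma 0 of the 4 genes were called, where 0.369% of all probe sets were called in either direction, and 3 had an unadjusted p below 0.05, namely DFR (0.0286), UF3GT (0.0258) and AT5MAT (0.0138), as did 11.3% of all probe sets. Without far-red with ABA replicate 3 the difference was -0.09 for AT4G14090, -0.24 for UF3GT, -0.24 for AT5MAT and -0.25 for DFR. Without far-red with ABA replicate 2 it was -0.34 for AT4G14090, -0.58 for UF3GT, -0.56 for AT5MAT and -0.46 for DFR. The difference of AT4G14090 was -0.10 without white light with ABA replicate 1. Without replicate 3 of that group it was -0.38 for AT4G14090, -0.53 for UF3GT, -0.54 for AT5MAT and -0.36 for DFR.

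Averaged over ABA levels, the far-red difference was -0.03 for DFR, -0.07 for UF3GT, 0.11 for AT4G14090 and -0.03 log2 units for AT5MAT. For each gene this averages a positive difference without ABA and a negative one with ABA. A small average therefore does not mean that each difference was small. The exact permutation test with light labels exchanged within each ABA level gave unadjusted p from 0.555 to 0.885 (p = 0.885 for each after adjustment over the same 8 tests). In limma the widest of the 4 intervals ran from -0.15 to 0.36 (AT4G14090), and none of the genes was called where 9.28% of probe sets were.

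The ABA difference under far-red light was 58.2% of that in white light for DFR, 56.8% for UF3GT, 55.7% for AT4G14090 and 40.8% for AT5MAT, on the log2 scale. The test of this change is the interaction, that is the ABA difference under far-red light minus that in white light. It was -0.63 for DFR (95% interval -1.06 to -0.20), -0.70 for UF3GT (-1.20 to -0.19), -0.69 for AT4G14090 (-1.20 to -0.18) and -0.77 for AT5MAT (-1.21 to -0.32). The unadjusted p was 0.00678 for DFR, 0.00996 for UF3GT, 0.0114 for AT4G14090 and 0.00233 for AT5MAT by limma. None passed after adjustment over all probe sets (adjusted p from 0.653 to 0.755). No probe set on the array passed the interaction test in limma (0%), 1465 (6.44%) had an unadjusted p below 0.05, and the smallest adjusted p was 0.4. The median interaction was -0.69 over the 4 genes and -0.014 over all probe sets. The interaction, the ABA differences and the far-red differences share the same 12 arrays and are not independent of each other.

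With far-red light and ABA together the expression of all 4 genes was higher than in white light, without overlap of arrays. AT4G14090 rose 2.5-fold (log2 difference 1.32, SE 0.17, limma adjusted p = 1.1e-04), UF3GT 2.30-fold (1.20, SE 0.17), DFR 2.25-fold (1.17, SE 0.14) and AT5MAT 1.84-fold (0.88, SE 0.15, limma adjusted p = 0.00122). Of all probe sets 6.48% were called higher, and 14.3% had no overlap in that direction. The share of calls that were higher was 39.1% after median centring and 61.4% as deposited. The sum of the 2 single differences from white light would be 1.80 for DFR, 1.90 for UF3GT, 2.01 for AT4G14090 and 1.65 for AT5MAT, and the gap between this sum and the measured difference is the interaction above.

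Of 62 other flavonoid pathway genes and regulators listed by locus, 9 were measured by name. The others, among them CHS, F3H, LDOX, PAP1 and TT8, have no singly named probe set in the annotation used here. This does not show that the array lacks them, and the 9 genes need not stand for the whole pathway. UGT78D2 (AT5G17050), the glucosyltransferase that acts on the newly made anthocyanidin and on flavonols, read 9.82, 9.92 and 9.65 log2 units in far-red with ABA and 9.46, 9.59 and 9.17 in far-red. It read 10.10, 10.03 and 9.75 in white light with ABA, against 9.22, 9.31 and 9.39 in white light. It had the same order of group means as the 4 genes, as did CHIL (below). UGT78D2 rose with ABA in white light by 0.65 (SE 0.12, limma adjusted p = 0.00316). Under far-red light its ABA difference was 0.39 (SE 0.12, limma adjusted p = 0.0512). Its far-red differences were 0.10 without ABA (limma adjusted p = 0.67) and -0.16 with ABA (limma adjusted p = 0.628). Its interaction was -0.27 (limma unadjusted p = 0.137, adjusted p = 0.825).

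Among 4 measured genes of the early flavonoid and flavonol steps, CHIL (AT5G05270), a chalcone isomerase-like protein that assists the first steps, rose with ABA in white light by 0.59 (SE 0.09, limma adjusted p = 5.3e-04). Its difference under far-red light was 0.22 (limma adjusted p = 0.13). CHIL, an early-step gene, had the order of group means of the 4 late genes. Its far-red differences were 0.27 without ABA (limma adjusted p = 0.0768) and -0.10 with ABA (limma adjusted p = 0.687). Its interaction was -0.37 (limma unadjusted p = 0.00827, adjusted p = 0.736). With far-red light and ABA together, over white light, UGT78D2 was higher by 0.49, a call lost when white light replicate 1 (0.44) or the second array of far-red with ABA (0.43) was left out, and CHIL was higher by 0.49. UGT78D1 and UGT89C1, which add rhamnose to flavonols, had ABA differences of -0.08 each in white light and of 0.16 and -0.24 under far-red light, none of them called. UGT78D3, which adds arabinose to flavonols, was absent on every array. UGT89C1 rose with far-red light without ABA by 0.38 (SE 0.09, limma adjusted p = 0.02), a call lost after centring each array on its median (0.29, adjusted p = 0.0579), with only the far-red and white-light groups in the fit, and without white light replicate 1 (0.36), white light replicate 3 (0.35) or far-red replicate 2 (0.37). The median ABA difference of these 4 genes was -0.01 in white light and 0.10 under far-red light. BAN (AT1G61720), which makes the precursors of seed coat tannins from the same pool, was absent on every array.

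Of the regulators, only 1 of 13 listed activators and 2 of 14 listed repressors could be identified by name in the annotation used here. HYH, a light-signalling bZIP factor, fell with ABA in white light by 0.36 on the log2 scale (limma adjusted p = 0.0486), a call lost when any 1 of 8 arrays was left out (difference -0.38 to -0.28, adjusted p up to 0.188), and its difference under far-red light was -0.04. AT1G23390 (KFB-CHS), a Kelch-repeat F-box protein known to mark chalcone synthase for degradation, read 7.67, 7.64 and 7.60 log2 units in far-red with ABA and 7.30, 7.24 and 7.39 in far-red. It read 8.72, 8.80 and 8.45 in white light with ABA, against 9.06, 9.02 and 9.42 in white light. At either ABA level the far-red arrays of this gene lay below all white-light arrays. It fell with far-red light by 1.85 without ABA (SE 0.11, limma adjusted p = 4.2e-07) and by 1.02 with ABA (limma adjusted p = 8.0e-04), where none of the 4 late genes was called. With ABA in white light KFB-CHS fell by 0.51 (limma adjusted p = 0.0115), a call lost without white light with ABA replicate 3 (-0.41, adjusted p = 0.0615). Its ABA difference under far-red light was 0.32 (limma adjusted p = 0.081). Its interaction of 0.83 did not pass over all probe sets (unadjusted p = 8.9e-05, adjusted p = 0.4). TRY, a single-repeat MYB protein called present on 1 of 3 arrays in each group with ABA, had ABA differences of -0.19 in white light and -0.40 under far-red light (limma adjusted p = 0.0524). Of the 9 genes, 2 rose and 2 fell with ABA in white light and none was called with ABA under far-red light.

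**Figure D3:**
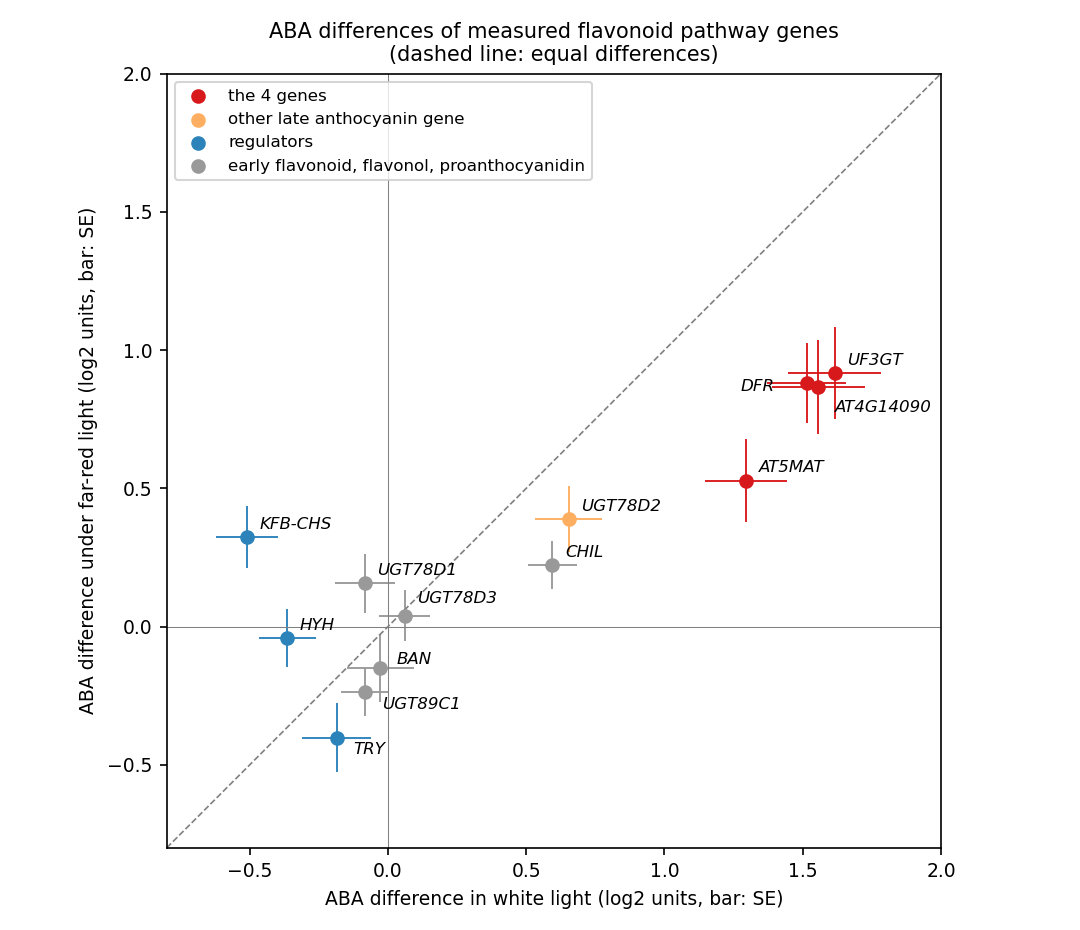
ABA difference in white light (horizontal axis) and under far-red light (vertical axis), in log2 units with SE bars, for the 4 late genes and the 9 other measured pathway genes; both axes share no array. DFR, UF3GT, AT4G14090 and AT5MAT lie at 1.30 to 1.62 and 0.53 to 0.92, below the dashed line of equal differences, with UGT78D2 and CHIL at 0.65 and 0.39 and at 0.59 and 0.22.

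The 4 genes had similar profiles over the arrays. Likeness was measured as the root mean square difference over the 12 arrays between log2 values from which each gene's own mean was subtracted. It was 0.13 log2 units between DFR and UF3GT, the closest pair, and 0.21 between AT4G14090 and AT5MAT, the most distant. From the mean of the 4 the genes lay at 0.09 (UF3GT) to 0.14 (AT5MAT), a mean to which each contributes. Among 7835 other named probe sets called present in at least 1 whole group, the nearest were AT1G51090 (0.23), AT3G15650 (0.27), AT4G00670 (0.27), AT1G79520 (0.27), ZW9 (0.28) and AT1G16850 (0.28). AT1G51090 was also the nearest to DFR (0.25) and to AT5MAT (0.20), AT3G15650 the nearest to UF3GT (0.27) and AT3G28270 the nearest to AT4G14090 (0.24). AT1G51090 (0.198) lay slightly nearer to AT5MAT than DFR (0.203) and AT4G14090 (0.208) did, and UF3GT lay at 0.191. Likeness to AT5MAT was thus not particular to the 4 genes.

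These neighbours all rose with ABA in both light conditions, which their choice by likeness to genes that rose with ABA largely fixes. The annotation used here gives these loci no function. AT1G16850 was called present on all 6 arrays with ABA and on 0 without, and AT4G00670 on 1 far-red and 0 white-light arrays without ABA. Their ABA differences are thus set against signal near background. AT1G51090 was called present on 1 of 3 white-light arrays and on 3 of 3 far-red arrays without ABA. By these calls the same limit holds for its ABA difference in white light. AT1G51090 rose by 1.19 in white light and by 0.58 under far-red light, with an interaction of -0.61 (unadjusted p = 0.0221, limma adjusted p = 0.758), and its far-red call was lost when far-red replicate 1 (0.49) or 3 (0.54) was left out, and likewise for replicates 1 (0.65) and 2 (0.43) of far-red with ABA and replicate 2 (0.58) of white light with ABA. AT3G15650 rose by 1.49 and 1.18 and AT3G28270 by 1.12 and 0.94 in white light and under far-red light. AT4G00670, AT1G79520, ZW9 and AT1G16850 rose by 0.89, 1.05, 1.01 and 1.19 in white light and by 0.83, 0.99, 1.16 and 1.47 under far-red light.

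**Figure D4:**
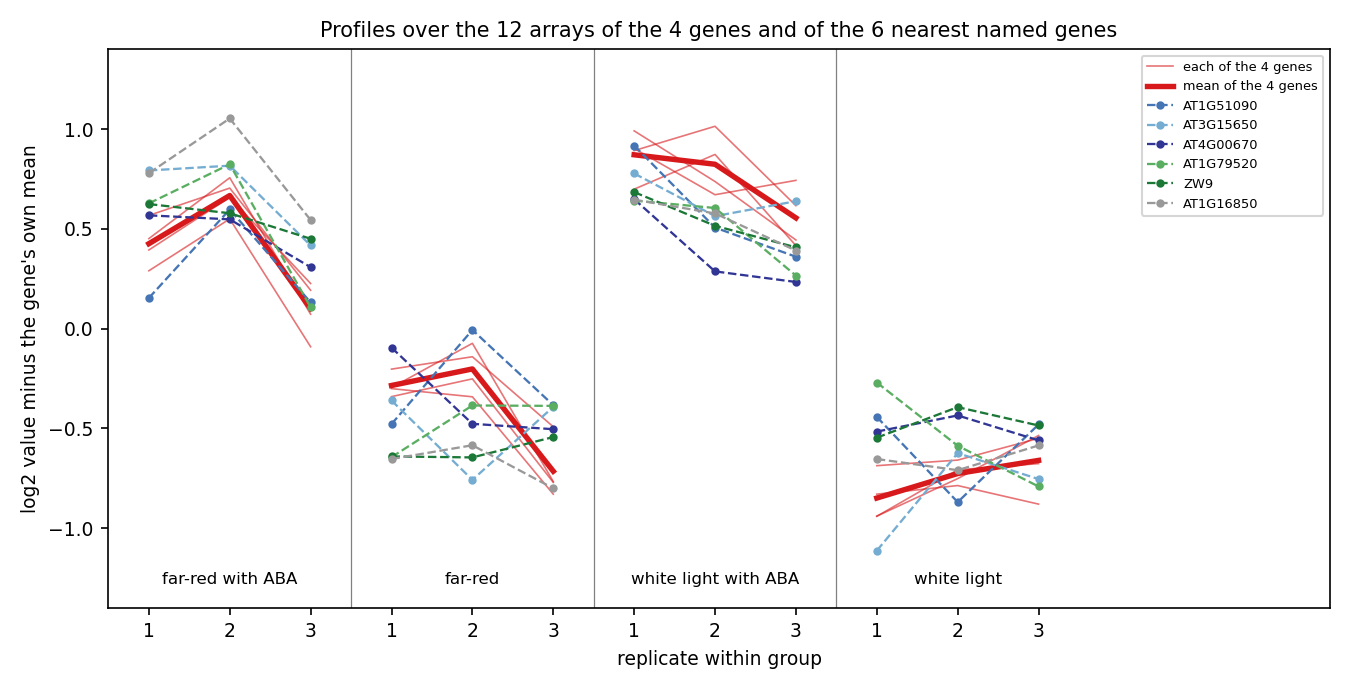
Log2 value minus each gene's own mean over the 12 arrays (vertical axis), by group and replicate, for the 4 late genes (thin red), their mean (thick red) and the 6 nearest named genes (dashed). The late genes are higher with ABA in both light conditions, and their mean is higher in white light with ABA than in far-red with ABA. The nearest gene, AT1G51090, is likewise lower in far-red with ABA (log2 difference -0.30), whereas AT1G16850 is higher there (0.25). The other dashed genes differ little between these groups (0.015 to 0.085). In this comparison no dashed gene and none of the 4 late genes was called.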

How the data were processed

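Total RNA was labelled with biotin and hybridised to 1-colour Affymetrix arrays, 1 per sample, assigned to groups by sample titles. The deposited values are log2 expression values per probe set from RMA with the affy package, and detection calls (another deposited column) come from MAS5, per the submitters' processing notes; neither a tool version nor a genome build is given there. RMA subtracts background, brings arrays to a common distribution and compresses low values. The table of the series held the same log2 values as the deposited matrix, to within 5.0e-09. Of 22810 probe sets 64 controls were left out. Names came from the platform annotation: 13513 probe sets had 1 gene, 503 several and 8730 were unlisted and are unnamed here, and 13436 were matched to RefSeq's gene table (TAIR10.1). No coordinates or sequences are given.

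limma 3.58.1 (R 4.3.3) fitted a mean per group on 12 arrays (8 residual degrees of freedom, prior 7.21), with eBayes and two-sided Benjamini-Hochberg adjusted p over 22746 probe sets. The fit was tested on simulated data for ABA in white light. It called 62% of the probe sets changed by 0.5 log2 units and 96% of those changed by 1. A missing call therefore does not show that a change of 0.5 or less is absent. Genes named are the 4 members, measured genes of the pathway lists, and the nearest genes by root mean square difference (6 to the mean, 1 to each gene). The members and lists were chosen with earlier results of these data known. Figures used matplotlib 3.10.9 in Python 3.11.15. Alternatives left out each array in turn or changed centring, normalization, filter, variance model, array weights, groups fitted or the block. The limma p-values set a difference between group means against the spread between replicates. The permutation p-values count the arrangements of labels that give a difference at least as large.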

Additional observations from a re-analysis of the deposited data

How the results depend on the processing

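The 4 genes were called with ABA in white light and with far-red and ABA over white light in all 19 alternatives, and with ABA under far-red in 14, with 3 called in the others (AT5MAT lost). None was called for far-red with ABA or the interaction in any alternative. For far-red without ABA the count was 0 to 1 when arrays were left out in turn, and 1 with the replicate number as a replicate block (AT4G14090, 0.45, limma adjusted p = 0.0297). The numbers were not taken to pair the arrays, since deviations from group means correlated above 0.1 in only 8 of 18 same-numbered pairs. The correlations ran from -0.051 to 0.273 in these pairs and from -0.211 to 0.133 in the 36 differently numbered pairs. Every array correlated best with one of its own number (12 of 12). This is a hint from the data of an effect shared by equal numbers, which the main fit and the permutation tests leave out. The averaged far-red difference changed sign as arrays were left out, over -0.087 to 0.050 for DFR, -0.148 to 0.023 for UF3GT and -0.105 to 0.055 for AT5MAT, and the cause was not tested. The alternatives for the other named genes were chosen after seeing the data. Over all probe sets, the count of calls with 1 array left out ran from 908 to 1510 for ABA in white light (1463 with all arrays), 1518 to 2434 for ABA under far-red (2352), 418 to 1689 for far-red without ABA (1393), 31 to 81 for far-red with ABA (84), 1492 to 2371 for both over white light (2400) and 0 to 2 for the interaction (0). In the other 7 alternatives it ran from 1283 to 1899 for ABA in white light and from 1876 to 2746 for ABA under far-red. For far-red without ABA it ran from 642 (only those groups fitted) to 1855 (trended robust variance). For far-red with ABA it ran from 73 to 149, with 149 under trended robust variance and 137 with array weights. For both over white light it ran from 1725 to 2738, and for the interaction it was at most 2. Most listed pathway genes are unnamed here.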
